A study of Caenorhabditis elegans with 2 samples.

Results

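The genes described here build the respiratory chain of mitochondria and the proton pump of acidic organelles. They are the protein-coding genes of Caenorhabditis elegans whose symbol begins with nuo-, sdh, cox-, ucr-, atp- or vha-, together with gas-1, isp-1 and cyc-1, and they number 58 of the 19973 protein-coding genes on the nuclear chromosomes. Of these, 38 belong to the mitochondrial complexes and 20 to the vacuolar H+-ATPase. The members were chosen by symbol, under a rule set with earlier results of these data known. Some subunits with other names are given as a separate list. UNC-86 is a transcription factor with a POU domain and a homeodomain that sets the identity of several classes of neurons, and its peaks were sought at their promoters.

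The samples were whole hermaphrodite worms in the first larval stage (L1), taken 6 hours after synchronization, in which larvae had been starved after bleaching. Both belonged to strain OP476, with the unc-119(tm4063) mutation on chromosome III and the transgene wgIs476, which carries UNC-86 tagged at its C terminus. The labels call the tag eGFP in one place and GFP-FLAG in another, and they name an anti-GFP antibody in the sample description but unc-86 in the antibody field. There were 2 biological replicates of 1 group, both with the mutation and the transgene, and a control named in the labels was not analysed here. No untagged or mutant worms could be set against them, so every comparison below is between genes, no test over samples was possible and no p-value is given.

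The respiratory chain passes electrons from NADH through complex I, or from succinate through complex II, to ubiquinone, and on through complex III and cytochrome c to complex IV, where oxygen is reduced. Complexes I, III and IV pump protons out of the mitochondrial matrix, and ATP synthase uses their return to make ATP. The vacuolar H+-ATPase (V-ATPase) runs the opposite way: its V1 sector hydrolyses ATP in the cytosol and turns the V0 sector in the membrane, which acidifies lysosomes, endosomes and synaptic vesicles. Both systems serve nearly every cell of the worm, and neurons use the V-ATPase to load transmitter into vesicles.

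The data were lists of peaks on the ce11 build, which has the sequence of WBcel235. The authors' optimal list held 2987 peaks, and their pooled list, a relaxed one that includes background, held 20768. The optimal peaks were those with the highest signal value in the pooled list, ranging from 66.4 to 1708 with a median of 127. The lists of replicate 1 and replicate 2 held 29587 and 25172 peaks. The signal value is the authors' own, with a scaling not given in the sources used here, and it serves below only to rank and describe peaks within 1 list. How deeply the libraries were sequenced is unknown, so intervals cover the counting of genes or peaks only.

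A gene was said to have a promoter peak if a summit lay between 1500 bp upstream and 500 bp downstream of one of its annotated 5' ends. An optimal promoter peak was present at 28 of the 58 genes, 48.3% (exact 95% interval 35.0 to 61.8%), against 2612 of all 19973 protein-coding genes, 13.1%. The mitochondrial genes had 20 of 38, 52.6% (35.8 to 69.0%), and the vha genes 8 of 20, 40.0% (19.1 to 63.9%). The intervals of these 2 groups overlapped, and their order turned when each summit counted only for the nearest 5' end of any gene. Then 8 of 38 mitochondrial genes, 21.1%, and 6 of 20 vha genes, 30.0%, had a peak, against 9.04% of all protein-coding genes. When each replicate's own 2987 strongest peaks were used, 28 genes had a peak in replicate 1 and 29 in replicate 2. That is a mean share of 49.1% ± 1.22 (SD, n = 2), against 12.8% of all protein-coding genes in replicate 1 and 13.2% in replicate 2. The mitochondrial share was then 53.9% ± 1.86, and the vha share was 40.0% in both replicates.

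The promoters with the highest signals belonged to complex IV and ATP synthase. cox-5A had a signal of 1017, rank 12 of 2987, and atp-1 had 614, rank 83. Among the vha genes the highest was vha-12, with 355 at rank 315. Below, 8 windows of 151 bp, each centred on the summit of a gene's strongest optimal peak, are shown to let these promoters be compared. They were picked after their values and letters had been seen, to show both marked and unmarked windows of several complexes, and they are not the strongest of each complex. Each is read 5' to 3' on the strand of the named gene, from the NCBI RefSeq genome of WBcel235. Capitals mark GAGAGA or GTCTCG on either strand; read on the opposite strand these are TCTCTC for the first sequence and CGAGAC for the other. GAGAGA was among the sequences searched from the start, whereas GTCTCG was added after the windows had been read. The window of cox-5A, chrIII:12905121-12905271, is on the plus strand, as are those of cox-6B, chrIII:2785993-2786143, nuo-1, chrII:11097458-11097608, atp-2, chrIII:5228092-5228242, vha-12, chrX:4190702-4190852, vha-8, chrIV:6790550-6790700, and vha-15, chrX:2237536-2237686. That of sdha-1, chrX:8546150-8546300, is on the minus strand.
cox-5A: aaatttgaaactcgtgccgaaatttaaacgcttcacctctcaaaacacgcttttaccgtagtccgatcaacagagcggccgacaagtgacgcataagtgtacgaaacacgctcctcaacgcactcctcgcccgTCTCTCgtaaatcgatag
cox-6B: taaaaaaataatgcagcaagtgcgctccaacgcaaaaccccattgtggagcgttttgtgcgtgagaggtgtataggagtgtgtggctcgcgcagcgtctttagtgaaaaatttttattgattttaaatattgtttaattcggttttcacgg
sdha-1: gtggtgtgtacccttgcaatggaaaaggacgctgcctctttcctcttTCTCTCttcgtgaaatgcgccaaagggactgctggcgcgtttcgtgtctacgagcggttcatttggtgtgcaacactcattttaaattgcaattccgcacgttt
nuo-1: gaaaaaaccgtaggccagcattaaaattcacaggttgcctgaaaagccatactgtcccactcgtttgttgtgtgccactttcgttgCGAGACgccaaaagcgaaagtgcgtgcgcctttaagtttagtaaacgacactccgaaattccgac
atp-2: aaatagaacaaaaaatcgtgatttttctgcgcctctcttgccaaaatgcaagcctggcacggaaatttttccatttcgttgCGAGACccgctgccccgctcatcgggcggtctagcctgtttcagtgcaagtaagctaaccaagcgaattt
vha-12: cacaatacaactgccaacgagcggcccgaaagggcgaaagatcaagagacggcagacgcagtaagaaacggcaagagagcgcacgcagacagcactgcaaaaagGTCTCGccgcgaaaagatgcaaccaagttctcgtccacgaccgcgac
vha-8: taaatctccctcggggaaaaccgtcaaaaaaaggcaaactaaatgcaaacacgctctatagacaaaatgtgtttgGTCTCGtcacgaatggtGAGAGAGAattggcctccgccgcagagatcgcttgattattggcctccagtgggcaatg
vha-15: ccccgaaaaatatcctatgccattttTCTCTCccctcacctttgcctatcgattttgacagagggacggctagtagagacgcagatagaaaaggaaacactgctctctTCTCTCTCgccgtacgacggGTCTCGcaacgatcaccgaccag

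The windows differed in these short sequences. GAGAGA was in 9 of the 31 distinct windows at the 28 genes, 29.0% (14.2 to 48.0%), against 36.3% of all 2987 optimal windows and 12.3% of the 17781 pooled peaks below the optimal list. Within the group it was in 4 of 24 mitochondrial windows, 16.7% (4.74 to 37.4%), and in 5 of 7 vha windows, 71.4% (29.0 to 96.3%). The mitochondrial windows with it were those of sdha-1, ucr-2.2, cox-5A and the weaker peak of cox-6B. The vha windows with it were those of vha-8, vha-9, vha-13, vha-15 and vha-16, and those of vha-12 and of the vha-1 and vha-2 peak lacked it. A match is a description of letters, not of a binding site.

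GTCTCG was in 9 of 31 windows, 29.0%, against 13.2% of all optimal windows and 5.53% of the weaker pooled ones. Since it was picked from these windows, that share is a description with no support of its own. The windows with it were those of nuo-1, ucr-1, both peaks of cox-6A, cox-14, atp-2, vha-8, vha-12 and vha-15. In nuo-1, atp-2 and vha-15 it was part of a longer shared word of 12 letters, GTCTCGCAACGA or its complement TCGTTGCGAGAC, which 18 of all optimal windows held, 0.603%. A second word of that length, GTGCGCCTTTAA or its complement TTAAAGGCGCAC, was shared by nuo-1, ucr-1 and cox-6A and was in 17 of all optimal windows, 0.569%. No longer word was shared by the windows of 3 or more members. Among the weaker pooled windows, 6 held the first word, 0.0337%, and 38 held the second, 0.214%. Both words were picked because these windows share them, so their presence here has no support of its own.

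Sequences known for POU and E-box factors were not found at these summits. AATGCAT was in 0 of 31 windows, which allows a share of up to 9.68%, against 3.05% of all optimal windows. The shorter ATGCAT was likewise in 0 windows, against 5.16%, the octamer ATGCAAAT in 0, against 1.24%, and the E-box CACGTG in 0, against 4.55%. Each of these background shares is below that limit, and the counts say only that the letters were not within 75 bp of a summit. TAATTA was in 2 windows, at nuo-2 and the weaker peak of cox-6B, against 4.52% of all optimal windows. TCTGCGTC was in 2, at ucr-1 and vha-15, or 6.45%, against 12.4%. The shorter of the first pair lies within the longer, so their counts are not separate. The median GC content was 44.4% in the mitochondrial windows and 48.3% in the vha windows, against 45.0% in all optimal windows.

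**Figure D1:**
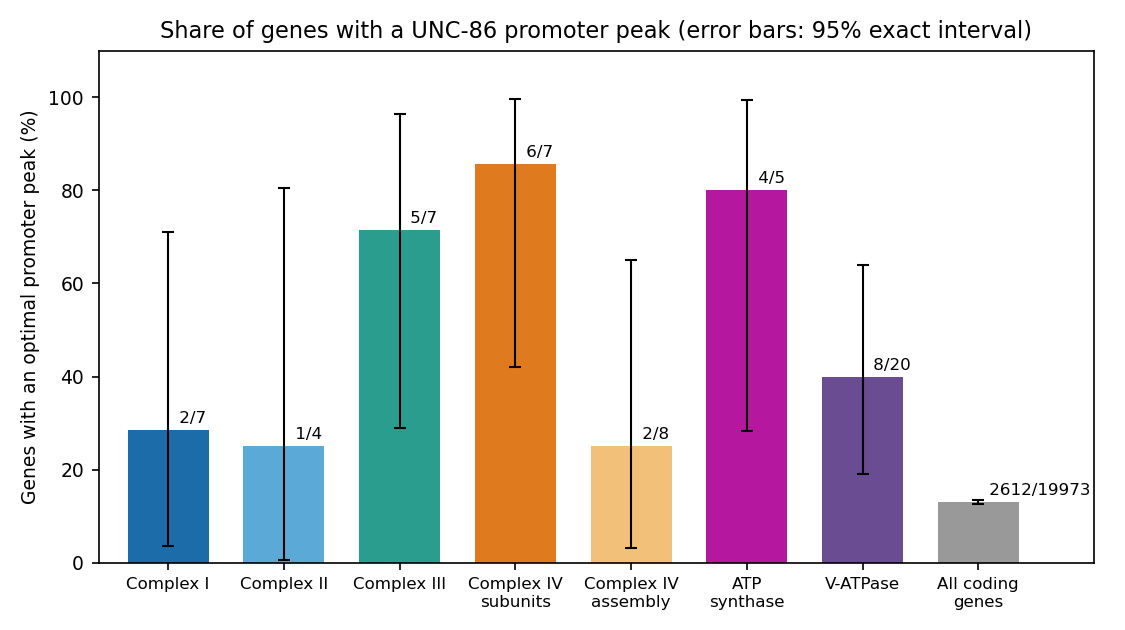
Share of genes with an optimal promoter peak, in percent, for each complex and for all protein-coding genes; the numbers above the bars are genes with a peak of genes in all, and error bars are exact 95% intervals. The subunits of complex IV stand at 6 of 7, ATP synthase at 4 of 5 and complex III at 5 of 7, while complexes I and II and the complex IV assembly factors stand between 25.0% and 28.6%.

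Complex III had a peak at 5 of 7 genes, the structural subunits of complex IV at 6 of 7 and ATP synthase at 4 of 5. Complex I had one at 2 of 7, complex II at 1 of 4 and the complex IV assembly factors at 2 of 8. The share over all protein-coding genes was 13.1%. It lay inside the exact intervals of complex I, complex II and the assembly factors. It lay below those of complex III, the complex IV subunits and ATP synthase. The counts by complex depend on how shared promoters are read. Where each summit counted only for the nearest 5' end of any gene, complex III had 3 genes with a peak, the complex IV subunits 2 and ATP synthase 2. Complex I then had 1, complex II 0 and the assembly factors 0, against 9.04% of all protein-coding genes. With so few genes in each complex the exact intervals are wide and overlap, for example 42.1 to 99.6% for the complex IV subunits and 3.67 to 71.0% for complex I. The median signal of the strongest peaks was 367 for the complex IV subunits, 217 for ATP synthase and 179 for complex III. It was 207 over the mitochondrial genes and 167 over the vha genes, against 147 over all protein-coding genes with a peak.

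Complex I, which oxidises NADH, was marked at core subunits. nuo-1, the subunit that binds NADH, had a signal of 180 in the pooled data, with 66.1 in replicate 1 and 106 in replicate 2. Its summit lay 304 bp upstream, on the annotated ncRNA C09H10.13. The 5' end of rpl-36.A, a ribosomal protein gene that runs the other way, was 329 bp from the same summit, and that of nbs-1, also on the other strand, 1055 bp. nuo-2, another core subunit, had a signal of 108, with 54.0 in replicate 1 and 50.5 in replicate 2, and a summit 160 bp upstream in an annotated untranslated region of T10E9.14. It was the one peak among the 31 whose value was lower in replicate 2 than in replicate 1.

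The other core subunits, gas-1 and nuo-5, and the supernumerary subunits nuo-3, nuo-4 and nuo-6 had no optimal peak, although each of these 5 had a pooled one. gas-1, the core subunit known for its hypersensitivity to volatile anaesthetics when mutated, came nearest with a pooled signal of 49.3, rank 4087. Those of nuo-3, nuo-4 and nuo-6 were 30.3, 27.3 and 25.5.

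In complex II, succinate dehydrogenase, the peak was at the flavoprotein. sdha-1 had a signal of 253, with 115 in replicate 1 and 135 in replicate 2, and its summit lay 204 bp upstream on the annotated ncRNA D2021.5, near the snoRNA gene D2021.6. Its paralogue sdha-2 had no peak even in the pooled list. The iron-sulphur subunit sdhb-1 and the membrane anchor sdhd-1 had only weak pooled peaks, of 20.5 and 39.0. The strongest peak in the sdhd-1 window had 15.8 in replicate 1 and 37.8 in replicate 2.

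Complex III, which passes electrons from ubiquinol to cytochrome c, was marked at its core proteins and at cytochrome c1. cyc-1, which encodes cytochrome c1, had a signal of 304, with 125 in replicate 1 and 175 in replicate 2, 301 bp upstream of its 5' end and with no other gene in reach. ucr-11 had almost the same signal, 303, with 145 in replicate 1 and 156 in replicate 2. That summit lay 1293 bp upstream, however, 57 bp from tre-1, a trehalase gene on the other strand, and 382 bp from dad-1, which encodes a subunit of the oligosaccharyltransferase. Of the core proteins, ucr-1 had 179 and ucr-2.2 had 171, at 154 and 209 bp upstream. The replicate values were 65.4 in replicate 1 and 108 in replicate 2 for ucr-1, and 84.8 and 86.3 for ucr-2.2. ucr-1 shares its upstream region with ddx-15, an RNA helicase gene, whose 5' end was 263 bp away. ucr-2.1 had 129, with 61.0 in replicate 1 and 64.6 in replicate 2. Its summit, 273 bp upstream, was nearer to nmat-1 on the other strand, at 113 bp, an enzyme of NAD synthesis.

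The paralogue ucr-2.3 had no optimal peak and a pooled signal of 25.7, close in size to the weak peaks of complex I. isp-1, the Rieske iron-sulphur protein whose mutation lengthens life, also had none. Its pooled signal of 51.0, rank 3941, was the highest among the 30 genes without an optimal peak. The strongest peak in its window differed between the replicates. It had 17.6 and rank 6598 in replicate 1, and 42.2 and rank 2676 in replicate 2, inside that list's strongest 2987. Whether these overlap the pooled peak was not checked.

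The structural subunits of complex IV, cytochrome c oxidase, had the highest median signal of the complexes, and cox-5A had the strongest peak of all members. The nuclear subunits surround a catalytic core that mitochondrial DNA encodes. cox-5A (WBGene00012553) had a peak at chrIII:12905061-12905343 with 474 in replicate 1 and 541 in replicate 2, which ranked 12 and 13 in those lists. Its summit lay 295 bp upstream with no other gene in reach. cox-5B had 440, with 187 in replicate 1 and 253 in replicate 2, and a summit 33 bp upstream. A second, weaker peak of 77.0 lay 1022 bp upstream, 79 bp from tba-1, an alpha-tubulin gene on the other strand.

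cox-6B and cox-6A also had 2 peaks each. Those of cox-6A were close together, with summits at chrIII:5080964 and chrIII:5081163. Those of cox-6B were far apart, at chrIII:2786068 and chrIII:2698938, because the gene is annotated from 2699663 to 2786859 with 2 different 5' ends. At cox-6B the strong one, of 390 with 176 in replicate 1 and 208 in replicate 2, lay 134 bp upstream of its inner annotated 5' end, in an intron of the longer transcript. That summit was slightly nearer to the 5' end of Y71H2AM.20 on the other strand, at 120 bp, and nduc-2, named for a complex I subunit, was 784 bp away. Its weaker peak of 91.6 lay 725 bp upstream of the outer 5' end, 121 bp from slc-30A9, a zinc transporter gene. At cox-6A the strong peak had 344, with 148 in replicate 1 and 192 in replicate 2, and lay 760 bp upstream. The nearest 5' end to it was that of F54D8.7, an snRNA gene. The weaker one, of 104 at 561 bp, had 23.5 in replicate 1 and 69.4 in replicate 2, the largest ratio between replicates among the 31 peaks, 2.96.

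cox-4 and cox-6C had lower signals that stood close together. cox-4 had 208, with 82.7 in replicate 1 and 118 in replicate 2, 461 bp upstream and nearest to an annotated pseudogene. cox-6C had 207, with 85.0 and 121, 376 bp upstream on the annotated ncRNA F29C4.9 and 424 bp from grld-1, an RNA-binding protein gene on the other strand. cox-7C was the one structural subunit without a peak, and it had none in the pooled list either.

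The assembly factors of complex IV were marked less often, at 2 of 8 genes against 6 of 7 structural subunits, a difference that was not tested. cox-10, the farnesyltransferase of haem A synthesis, had 156, with 71.0 in replicate 1 and 83.1 in replicate 2, 117 bp upstream on the ncRNA Y38E10A.30, and 191 bp from Y38E10A.33 on the other strand. A second peak of 68.3 lay 1345 bp upstream, nearer to Y38E10A.24. cox-14 had 149, with 67.6 in replicate 1 and 80.2 in replicate 2, 165 bp upstream. That summit was nearer to rde-4 on the other strand, at 131 bp, a double-stranded RNA binding protein of RNA interference. cox-11, cox-15, cox-16, cox-17, cox-18 and cox-19 had no optimal peak. Among them are the copper carriers cox-11, cox-17 and cox-19, and haem A synthase, cox-15. Pooled signals were 32.7 at cox-17, 20.7 at cox-16 and 20.1 at cox-11, while cox-15, cox-18 and cox-19 had no pooled peak.

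ATP synthase was marked at 4 of 5 genes. atp-1 (WBGene00010419), the alpha subunit of the catalytic head, had its peak at chrI:12652142-12652388 with a summit 19 bp upstream, the closest to a 5' end in the group. Its values were 277 in replicate 1 and 337 in replicate 2, and mcrs-1 on the other strand was 171 bp away. atp-2, the beta subunit that holds the catalytic sites, had 282, with 102 in replicate 1 and 174 in replicate 2, 250 bp upstream and facing C34E10.10 at 283 bp and C34E10.12 at 286 bp. atp-3, the stalk subunit that confers sensitivity to oligomycin, had 152, with 67.6 in replicate 1 and 86.1 in replicate 2, and a summit 20 bp upstream that F27C1.2 on the other strand shares at 229 bp. atp-5, another stalk subunit, had 144, with 65.0 in replicate 1 and 78.7 in replicate 2, 286 bp upstream. Its summit was only 33 bp from lmtr-3 on the other strand. atp-4, a further stalk subunit, had no optimal peak and a pooled signal of 38.4. The strongest peak in its window had 21.3 in replicate 1 and 24.5 in replicate 2.

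**Figure D2:**
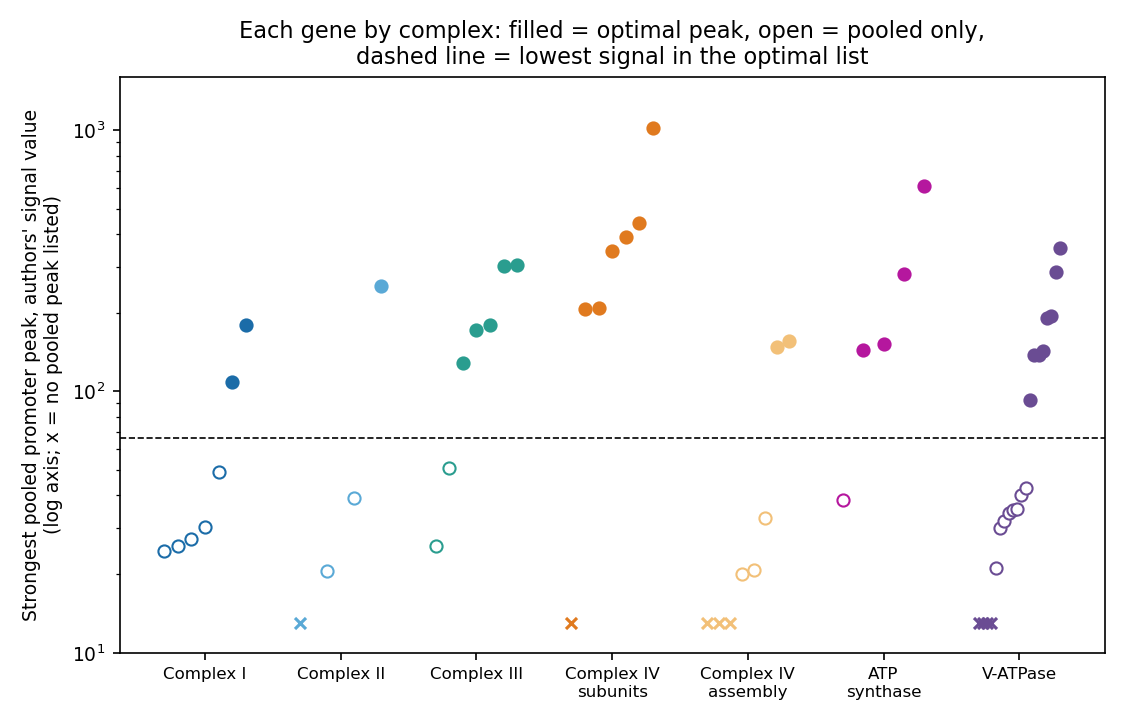
Signal value of the strongest pooled promoter peak of each of the 58 genes, on a log axis, by complex; filled points have an optimal peak, open points only a pooled one, and crosses, drawn at the foot, have no pooled peak; the dashed line is the lowest signal in the optimal list. The highest filled points are cox-5A at 1017 and atp-1 at 614, and no open point exceeds 51.0. All open points must lie below the lowest optimal value, 66.4, because the optimal peaks are those with the highest pooled signal.

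In the V-ATPase the V1 sector was marked at 5 of 9 genes and the V0 sector at 3 of 9. The accessory genes vha-19 and vha-20 were marked at 0 of 2, and the share over all protein-coding genes was 13.1%. The sectors were not tested against each other, and 2 of the V0 genes, vha-1 and vha-2, share 1 peak. Counting each summit only for the nearest 5' end of any gene removed vha-8 from V1 and vha-2 from V0. The catalytic head was marked on both of its subunit types. vha-12, the B subunit, had 355, with 173 in replicate 1 and 176 in replicate 2, 317 bp upstream and with no other gene in reach. vha-13, the A subunit that hydrolyses ATP, had 195, with 95.5 and 98.2, 513 bp upstream within the annotated 3' untranslated region of cept-2. These were among the ratios between replicates closest to 1 in the group.

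The stalks and the regulatory subunit of V1 followed. vha-8, the E subunit, had 286, with 130 in replicate 1 and 151 in replicate 2, 449 bp upstream but 137 bp from C17H12.2 on the other strand. vha-9, the F subunit, had 143, with 56.0 in replicate 1 and 85.3 in replicate 2, 215 bp upstream. vha-15, the H subunit, had 192, with 86.7 in replicate 1 and 103 in replicate 2, 300 bp upstream and with no other gene in reach. Its paralogue vha-18 had no peak in the optimal or the pooled list. vha-10, vha-11 and vha-14, the G, C and D subunits, had no optimal peak. Pooled signals were 35.2 at vha-10 and 35.4 at vha-11, and vha-14 had none.

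In the V0 sector the peaks were at subunits of the ring and its cap. vha-1 and vha-2, which encode the proteolipid c subunits, lie one after the other and share a single peak of 138, with 54.6 in replicate 1 and 79.2 in replicate 2. It lay 439 bp upstream of vha-1 and 1349 bp upstream of vha-2, and 461 bp from sqv-3, a galactosyltransferase gene on the other strand. vha-16, the d subunit that joins the ring to the stalk, had 92.6, with 38.6 in replicate 1 and 51.8 in replicate 2, the lowest of the strongest peaks in the group. vha-3 and vha-4, further ring subunits, and vha-17, the e subunit, had no optimal peak, with pooled signals of 42.8 at vha-4 and 40.0 at vha-17.

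None of the a subunits named vha-, vha-5, vha-6 and vha-7, had an optimal peak. They hold the proton channels, and different tissues use different ones. unc-32, the remaining a subunit, whose name falls outside the rule, did have an optimal peak, of 486 at rank 163, but 1316 bp upstream and nearer to lin-9. Paralogues thus split in several families: sdha-1 was marked and sdha-2 was not, vha-15 and not vha-18, ucr-2.1 and ucr-2.2 and not ucr-2.3. No list of all paralogues was set for this, and the pairs were chosen after their values had been seen.

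Of the 30 genes without an optimal peak, 21 had a pooled peak in the window, with signals from 20.1 to 51.0 and a median of 32.03. The remaining 9 were sdha-2, cox-7C, cox-15, cox-18, cox-19, vha-5, vha-14, vha-18 and vha-20. A pooled promoter peak of any strength was present at 49 of 58 genes, 84.5%, against 41.8% of all protein-coding genes, and at 33 of 38 mitochondrial genes and 16 of 20 vha genes. The edge of the window decided few of these. Just inside it were vha-2 at 1349 bp, the second peak of cox-10 at 1345 bp and ucr-11 at 1293 bp. The nearest optimal summits to genes without one lay well outside: 2980 bp downstream of the 5' end of nuo-4, 3022 bp downstream for nuo-3, 3090 bp upstream for cox-18 and 3642 bp upstream for cox-11.

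**Figure D3:**
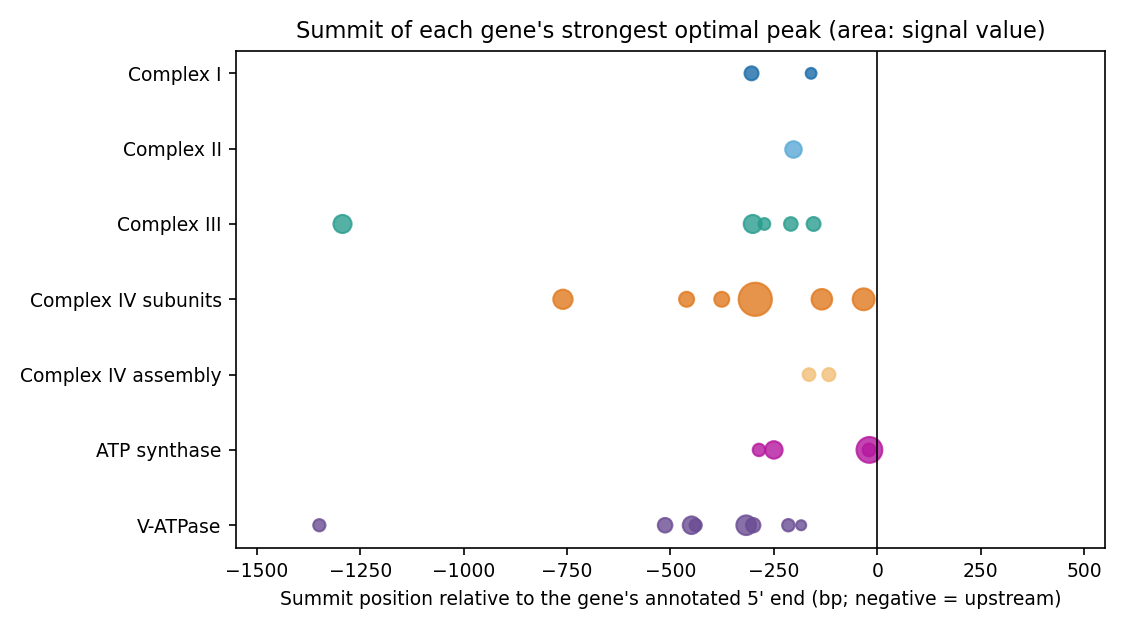
Position of the summit of the strongest optimal peak relative to the annotated 5' end of each of the 28 genes, in bp, by complex; negative values are upstream and the area of a point is proportional to its signal value. All points lie upstream, mostly within 500 bp, and the far points are ucr-11 at 1293 bp and vha-2 at 1349 bp.

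Summits lay close upstream of the genes. At 24 of 28 genes, 85.7%, the strongest summit was within 500 bp upstream, against 63.9% of all protein-coding genes with a peak. None of the 28 lay downstream of the 5' end, against 4.90% of all. The median distance was 230 bp for the mitochondrial genes and 378 bp for the vha genes, against 268 bp for all protein-coding genes with a peak. By the annotation, 23 of the 31 distinct summits were intergenic, 74.2%, against 64.2% of all optimal summits. Another 5 lay on exons of non-coding genes, 16.1%, against 9.11% of all optimal summits. Untranslated regions of other genes held 2, 6.45%, against 3.92% in untranslated regions over all. An intron held 1, the strong peak of cox-6B, 3.23%, against 21.4%. The members' summits had to lie in the promoter window, and the optimal summits as a whole did not. These shares by place are therefore not like for like.

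Many of the promoters are shared. The 28 genes had 27 distinct strongest peaks, and 16 of these, 59.3%, had another protein-coding gene with its 5' end in reach, on the opposite strand in 15. Over the 1789 distinct strongest promoter peaks of all protein-coding genes, 39.9% had another such gene in reach. Genes on opposite strands were in reach at 35.5% of these, against 55.6% for the members. The members were picked as genes, whereas a peak reached by several of the 2612 genes with a peak counts once among the 1789. These shares are therefore not like for like, and a share per gene is not given. The member was the nearest protein-coding gene at 21 of 27, a count without a share over all genes beside it. A non-coding gene or pseudogene had the nearest 5' end at 8, 29.6%, against 16.9% of those 1789 peaks, with the same limit. These 8 were the peaks of nuo-1, sdha-1, ucr-11, cox-4, cox-6A, cox-6C, cox-10 and atp-3. All 8 belonged to mitochondrial genes, of 20 peaks, against 0 of 7 vha peaks, and a peak list does not tell which of the neighbours a summit serves. Where each summit counted only for the nearest 5' end of any gene, 14 of 58 members kept a peak, 24.1%, against 9.04% of all protein-coding genes. With the nearest protein-coding 5' end alone, a rule added after the data had been seen, 21 of 58 kept one, against 9.03%.

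The other rules left the group between 26 and 29 genes. A window of 1000 bp upstream to 250 bp downstream gave 26, losing ucr-11 and vha-2, against 11.1% of all protein-coding genes. Counting peaks that only touch the window gave 28, against 13.8%. Peaks above the median signal gave 26, losing nuo-2 and vha-16, against 7.71%. As many of the strongest pooled peaks as the list on the older ce10 build held, 3637, gave 28, against 15.0%, and the outermost 5' end alone gave 28, against 12.3%. The strongest peaks of replicate 2 gave 29, adding isp-1, against 13.2%, and those of replicate 1 gave 28, against 12.8%. Pooled promoter peaks fell to 44 genes with the narrower window, against 33.6% of all, and to 45 when a peak had to overlap one in both replicate lists, against 30.5%.

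**Figure D4:**
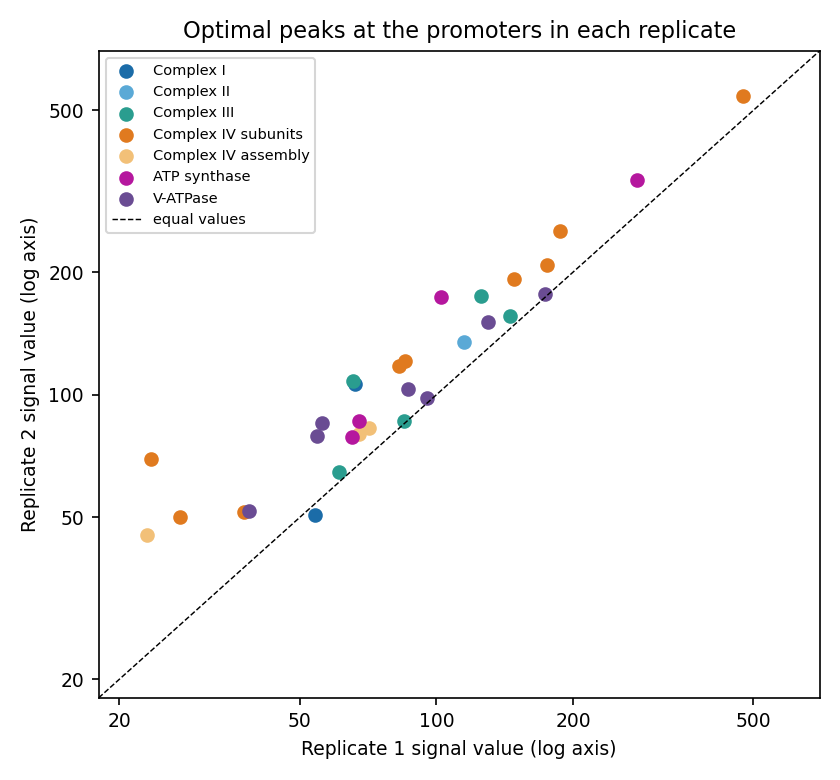
Signal values of the 31 distinct optimal peaks at the promoters in replicate 1 (horizontal) and replicate 2 (vertical), on log axes, coloured by complex; the dashed line marks equal values. cox-5A stands highest in both replicates, at 474 and 541, the weak second peaks of cox-10, cox-6A and cox-5B stand lowest in replicate 1, and all but nuo-2 lie above the line.

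All 31 distinct peaks were overlapped by a peak in both replicate lists. The optimal list was selected for reproducibility between the replicates, and all 2987 optimal peaks had values in both. The overlap is therefore not particular to the members. Of the 31, 28 were among the strongest 2987 of both replicates, a count without a share over all optimal peaks beside it. The other 3, all among the strongest of replicate 2 only, were the weaker peaks of cox-5B, cox-6A and cox-10. Replicate 2 had the higher value at 30 of 31 peaks, with a median ratio of 1.27 to replicate 1, against a median ratio of 1.27 and 82.0% of peaks higher over all 2987 optimal peaks. Since the scaling of the signal is not given, that ratio is no measure of binding. Summits moved by a median of 5 bp in either replicate and at most by 84 bp.

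The peaks were spread over all nuclear chromosomes. Chromosome I had peaks at 8 of 13 members, III at 8 of 12 and X at 5 of 7. Chromosome II had 3 of 8, V had 2 of 6 and IV had 2 of 12. Over all protein-coding genes the shares were 19.2% on I, 19.3% on III, 11.5% on X, 11.7% on II, 8.45% on V and 12.5% on IV.

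Further subunits of the same complexes, outside the rule by their names, were put in a hand-written list. It is not complete and leaves out nduc-2. In it, 8 of 13 genes had a peak, 61.5% (31.6 to 86.1%), against 13.1% of all protein-coding genes. The highest were mev-1, the cytochrome b subunit of complex II, with 315, nduf-11 of complex I with 281 and asb-2 of ATP synthase with 171. The enzymes of the citric acid cycle had 6 of 16, 37.5%, led by aco-2 with 356, idhg-1 with 163 and idhb-1 with 160. Subunits of the mitochondrial import machinery had 5 of 13, 38.5%, led by tomm-20 with 401, tin-9.1 with 214 and tin-9.2 with 178.

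Among the adenine nucleotide carriers, which exchange ADP and ATP across the inner membrane, ant-1.1 had 500 at 35 bp upstream, and the other 3 had no optimal peak. The mobile carriers and the enzymes of ubiquinone synthesis had 2 of 10, near the 13.1% of all protein-coding genes. One was cyc-2.1, a cytochrome c gene, with a peak of 1396 at rank 3, but 1054 bp upstream and nearer to Y17G9B.5. The other was coq-3, with 125. The P-type pumps of the plasma membrane and other membranes, which use ATP without a rotor, had 2 of 13, 15.4%, also near it. These were eat-6, the Na+/K+ pump, with 130 and catp-8 with 108. Each of these lists holds few genes, and no list was tested against another.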

How the data were processed

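ChIP-seq of tagged UNC-86 in whole L1 larvae was deposited as peak lists for 2 biological replicates of 1 group. Per the listing deposited beside the samples, the authors made 1 list per replicate and 1 from both, then used an irreproducible discovery rate (IDR) step to select the optimal list. The deposited signal value has a scaling not given in the sources used here, and the same holds for the aligner, peak caller and IDR threshold. Lists on ce11 were used. Of the ce10 lists only the number of optimal peaks was used. All 2987 optimal peaks were in the pooled list. Read depth is unknown, and whole animals hold many cell types.

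Summits were set against Ensembl release 115 (WBcel235) in Python 3.11.15 (pandas 2.3.3, numpy 2.4.6, scipy 1.17.1). Figures used matplotlib 3.10.9. A summit counted for every gene with a 5' end in reach, a step tested on simulated peaks. Replicate values at optimal peaks are those of the overlapping peak (at least 1 bp) with the closest summit. For genes without an optimal peak they are those of the strongest peak in the gene's window in each replicate's list. Where a gene had 2 optimal peaks, the stronger gave its value. A count of 0 was read as allowing up to 3 windows, and intervals are exact (Clopper-Pearson) at 95%. The rule that picks members by symbol, the gene lists and the comparisons were set with earlier results of these data known. Every member with an optimal promoter peak is named with its values. Members without one are named, with values for up to 4 of each complex with the highest pooled signals among them. Other lists name up to 3 genes, and genes facing a member across a shared promoter are named too. Alternatives changed the window, the overlap rule, the assignment to genes, the signal threshold, the list length, the 5' ends used and the replicate used.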

Additional observations from a re-analysis of the deposited data

How the results depend on the processing

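Under the assignment of each summit to the nearest 5' end of any gene, the number of members with an optimal promoter peak moved to 14 (main value 28), and that of mitochondrial members to 8 (main value 20). Among 9 alternatives each, the other 8 for all members and the other 8 for mitochondrial members stayed within 1.5 times the main count, and all 9 for vha members did, as did both for pooled promoter peaks. The counts without replicate 1 and without replicate 2 ranged from 28 to 29 for all members and from 20 to 21 for mitochondrial members, and both were 8 for vha members. By complex, the nearest 5' end rule left 1 gene of complex I, 0 of complex II, 3 of complex III, 2 complex IV subunits, 0 assembly factors, 2 of ATP synthase and 6 of the V-ATPase. That rule counts each summit for its nearest 5' end only, which at 8 of the members' 27 strongest peaks was that of a non-coding gene or pseudogene. Members fell from 48.3% to 24.1% under it, and all protein-coding genes from 13.1% to 9.04%. The reason for this difference was not tested. Read depth is unknown, so whether weak pooled peaks such as that of isp-1 would pass with deeper libraries was not tested. No paired analysis was possible because there is 1 group.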
